A study of Mus musculus with 12 samples.

Results

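The PYHIN genes of the mouse, also called the Ifi200 family, were examined in fetal liver alveolar-like macrophages (FLAMs). The 8 genes described, Ifi203, Ifi204, Ifi205, Ifi209, Ifi211, Ifi213, Mndal and Aim2, were taken by gene symbol from a count table of 40847 rows. All 8 had a row, and all 8 were among the 14749 genes with enough counts to be tested. The series asked whether TGFβ changes the answer of these macrophages to a TLR2 ligand. FLAMs are macrophages grown from mouse fetal liver, and all 4 groups grew in medium with 30 ng/ml of the growth factor GM-CSF. The untreated group had no further factor, the TGFβ group had recombinant human TGFβ1 at 20 ng/ml in its medium, the Pam3 group had the TLR2 ligand Pam3CSK4 at 25 ng/ml for 18 h, and the Pam3+TGFβ group had both. Each of the 4 groups had 3 libraries, with 34036650 to 44374115 counts per library. The labels give no genotype, strain or age, and do not say that the 3 libraries of a group came from separate cultures or animals. P-values therefore measure the spread between these libraries, which may be technical. FLAMs are cultured cells and serve as a model of alveolar macrophages.

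PYHIN proteins join a pyrin domain, through which proteins with pyrin domains bind each other, to a HIN domain that binds DNA. AIM2 senses DNA in the cytosol and assembles an inflammasome with the adaptor ASC, the product of Pycard, and caspase-1, which cleaves interleukin 1β and gasdermin D. The mouse has many more PYHIN genes than humans have, most of them are best known as genes that interferons raise, and the protein of Ifi204 (p204) is often likened to human IFI16. The separate roles of most other members in macrophages are less settled.

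All 6 macrophage markers examined (Adgre1, Cd68, Lyz2, Csf1r, Mertk, Fcgr1) were present in all groups. All 7 alveolar macrophage markers examined (Siglecf, Marco, Pparg, Itgax, Car4, Fabp4, Chil3) had a row, and their summed level ran from 5727 to 6508 CPM (edgeR's count rate on TMM-scaled library sizes) untreated, 6377 to 6804 with TGFβ, 7237 to 7683 with Pam3 and 7026 to 7305 with both. They did not move in 1 direction with TGFβ alone: the mean of Siglecf was 32.1 CPM untreated and 300.4 CPM with TGFβ, and those of Pparg, Car4 and Chil3 were also higher, while Marco went from 2147 to 123.3 CPM, Itgax from 335.3 to 167.9 CPM and Fabp4 from 31.1 to 0.132 CPM. The lymphocyte markers Cd3e and Nkg7 had no count in any library. The summed level of the macrophage markers ran from 30626 to 34866 CPM untreated, 16547 to 17459 with TGFβ, 33289 to 34355 with Pam3 and 25353 to 26032 with both. Most of this sum was Lyz2, with group means of 29824 CPM untreated and 15248 CPM with TGFβ. The means of Adgre1, Cd68 and Csf1r were also lower with TGFβ alone, that of Mertk was 223.2 CPM untreated and 222.2 CPM with TGFβ, and that of Fcgr1 was 81.1 and 91.3 CPM.

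The 8 genes lie in 1 block of chromosome 1, from 173178445 to 173859456 of GRCm39 (681012 bases), with 13 protein-coding genes in all. In the GENCODE M39 annotation their order was Aim2 (173178445 to 173293930, plus strand, 5 exons), Ifi213 (173393846 to 173426881, minus strand, 7 exons), Ifi209 (173458380 to 173475494, plus strand, 7 exons) and Ifi204 (173574859 to 173594610, minus strand, 9 exons). They were followed by Mndal (173676539 to 173708447, minus strand, 9 exons), Ifi211 (173723911 to 173740612, minus strand, 7 exons), Ifi203 (173747971 to 173770436, minus strand, 8 exons) and Ifi205 (173839549 to 173859456, minus strand, 7 exons). All 8 are annotated as protein-coding. Of the 3 nearest protein-coding genes on each side, Mptx2, Ackr1 and Cadm3 had a row in the count table, and the highest count among them in any library was 1.

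Reads may be shared between these genes, because parts of their exons are identical. Every stretch of 100 bases of each gene's main transcript, cut within exons, was looked up in the rest of the genome. For Ifi211, 58.3% of the stretches also occurred elsewhere, and for Ifi205 43.4% did. The share was 20.3% for Mndal, 18.2% for Ifi209, 14.2% for Ifi204, 11.7% for Ifi213, 9.66% for Ifi203 and 0 for Aim2. The series' design text gives a read format and a reagent kit that imply different read lengths, so the read length is uncertain, and the share depends on it (74.1% for Ifi211 at stretches of 50 bases). Identity over aligned coding bases was 96.6% between Ifi204 and Ifi211, 94.7% between Ifi211 and Ifi205, and 91.7% between Ifi204 and Ifi205. At 100 bases, Ifi211 and Ifi205 shared 458 identical stretches, Ifi204 and Ifi211 shared 179, and Ifi204 and Ifi205 shared none. At 50 bases, Ifi204 and Ifi205 shared 57. Ifi209 was 96.5% identical to Ifi214, and Ifi213 was 96.9% identical to Ifi208, neither of them among the 8. How multiply aligned reads were counted is not given in the sources used here, so the counts of these genes other than Aim2 are uncertain as separate values. Mndal also overlaps the exons of Gm38050 on the same strand by 118 bases, none of them in its main transcript. The stretches of Aim2 were all unique at 100 bases, and 7.20% of them were not unique at 50 bases.

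Promoter windows, from 250 bases before to 50 bases after a start site, are shown for Ifi205 and Ifi211, for Ifi203, Mndal and Ifi209, and for Aim2, which stand for 3 different courses over the 4 groups. The RefSeq windows are on GRCm38.p6, and 7 of the 8 genes, Ifi204 aside, had one (9 windows). Capitals mark a match on either strand to the core of the interferon-stimulated response element, which is GAAA, then any 2 bases, then GAAA. The windows lie at chr1:173912997-173913296 (Ifi211, minus strand), chr1:174031706-174032005 (Ifi205, minus strand), chr1:173942443-173942742 (Ifi203, minus strand), chr1:173880138-173880437 (Mndal, minus strand), chr1:173630609-173630908 (Ifi209, plus strand) and chr1:173420354-173420653 (Aim2, plus strand).
Ifi211: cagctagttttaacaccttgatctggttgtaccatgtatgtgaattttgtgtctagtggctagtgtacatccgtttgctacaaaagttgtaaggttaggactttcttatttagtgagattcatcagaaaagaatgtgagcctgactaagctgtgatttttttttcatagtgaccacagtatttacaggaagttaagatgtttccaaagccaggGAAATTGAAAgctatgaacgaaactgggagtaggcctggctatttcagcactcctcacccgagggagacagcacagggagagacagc
Ifi205: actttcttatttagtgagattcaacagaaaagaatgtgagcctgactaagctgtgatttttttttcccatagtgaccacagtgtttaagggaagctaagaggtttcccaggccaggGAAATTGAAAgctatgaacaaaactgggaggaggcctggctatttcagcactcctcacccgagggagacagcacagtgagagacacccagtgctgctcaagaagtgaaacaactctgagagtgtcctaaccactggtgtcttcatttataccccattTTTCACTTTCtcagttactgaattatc
Ifi203: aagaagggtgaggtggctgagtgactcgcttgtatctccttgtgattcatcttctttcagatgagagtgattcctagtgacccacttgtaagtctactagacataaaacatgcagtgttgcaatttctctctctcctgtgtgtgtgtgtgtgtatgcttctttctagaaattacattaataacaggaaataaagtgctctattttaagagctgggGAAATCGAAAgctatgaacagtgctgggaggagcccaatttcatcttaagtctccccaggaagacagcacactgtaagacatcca
Mndal: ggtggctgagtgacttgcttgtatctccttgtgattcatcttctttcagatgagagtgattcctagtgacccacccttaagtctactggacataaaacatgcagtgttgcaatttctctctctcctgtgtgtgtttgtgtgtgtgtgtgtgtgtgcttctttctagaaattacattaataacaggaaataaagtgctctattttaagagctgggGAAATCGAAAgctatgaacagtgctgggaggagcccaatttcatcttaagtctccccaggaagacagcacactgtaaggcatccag
Ifi209: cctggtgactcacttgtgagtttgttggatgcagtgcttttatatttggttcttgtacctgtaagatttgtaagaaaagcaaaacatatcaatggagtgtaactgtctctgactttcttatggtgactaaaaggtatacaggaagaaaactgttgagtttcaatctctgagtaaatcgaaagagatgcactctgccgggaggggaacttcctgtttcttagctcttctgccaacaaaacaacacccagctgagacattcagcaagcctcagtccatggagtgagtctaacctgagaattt
Aim2: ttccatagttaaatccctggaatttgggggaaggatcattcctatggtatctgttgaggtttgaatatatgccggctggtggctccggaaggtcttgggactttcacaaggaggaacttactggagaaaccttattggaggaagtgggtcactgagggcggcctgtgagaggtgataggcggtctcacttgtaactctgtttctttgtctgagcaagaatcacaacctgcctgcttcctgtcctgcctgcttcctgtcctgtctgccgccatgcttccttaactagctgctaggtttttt

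The core was found in 6 of the 9 windows of the members, in Ifi203, Ifi205, Ifi211, Ifi213 and Mndal. It was found in 3.44% of all 32851 promoter windows. On the coding strand the match read GAAATTGAAA in Ifi211 (first base at position -37 from the start site) and Ifi205 (-134). It read GAAATCGAAA in Ifi203 (-35), Mndal (-36) and Ifi213 (-73). Outside the 8, GAAATCGAAA also lay in the windows of Ifi206, Ifi207, Ifi208 and Ifi214. With Pam3 present, TGFβ raised Ifi206, Ifi207 and Ifi208 (log2 fold change 0.99, 1.38 and 1.52), and Ifi214 was not called. The other Mndal window, not shown, held a match on the opposite strand (-54). The Ifi203 and Mndal windows shown shared an unbroken run of 139 identical bases that holds the match, and those of Ifi205 and Ifi211 shared a run of 45 bases downstream of it. The Ifi205 window held a further match on the opposite strand, 23 bases after the start site. No match lay in the windows of Ifi209 or Aim2. Among 4 other motifs searched on both strands, TTCNNNGAA (the GAS motif, in 8.30% of all windows), GGG, any 2 bases, TTTCC (bound by NF-κB, 1.63%) and GTCTAGAC (a SMAD palindrome, 0.213%) matched no window of the members. CAGACA, a shorter SMAD motif in 21.0% of all windows, matched the Aim2 window only. A match describes letters in the window and shows no binding.

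Pam3 raised most of the family in FLAMs without TGFβ, TGFβ alone lowered most of it, and cells that had TGFβ gave a far steeper rise to Pam3. Expression was compared with the quasi-likelihood test of edgeR. A gene is called where its p, adjusted by Benjamini-Hochberg over the 14749 genes in the test, was under 0.05. Without TGFβ, Pam3 raised 7 of the 8 members and lowered none, where 18.3% of all tested genes were called (9.62% higher, 8.66% lower). With TGFβ present, Pam3 raised 8 of 8, where 38.5% of all genes were called (20.4% higher, 18.1% lower). TGFβ without Pam3 lowered 6 members and raised Aim2, where 51% of all genes were called (22.9% higher, 28.1% lower). TGFβ in the presence of Pam3 raised 4 members and lowered Mndal, where 45.3% of all genes were called (21.5% higher, 23.8% lower). The interaction, the difference between both Pam3 responses (positive where that in TGFβ-treated cells was higher), was higher for 7 members and lower for none, where 15.9% of all genes were called (10.3% higher, 5.67% lower). The median log2 fold change over the members was 1.65, 5.24, -2.49, 0.78 and 3.33 in these 5 comparisons in order. The median over all genes lay between -0.0185 and 0.0045 in each of them. The comparisons share groups, so their values are not independent of each other.

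**Figure D1:**
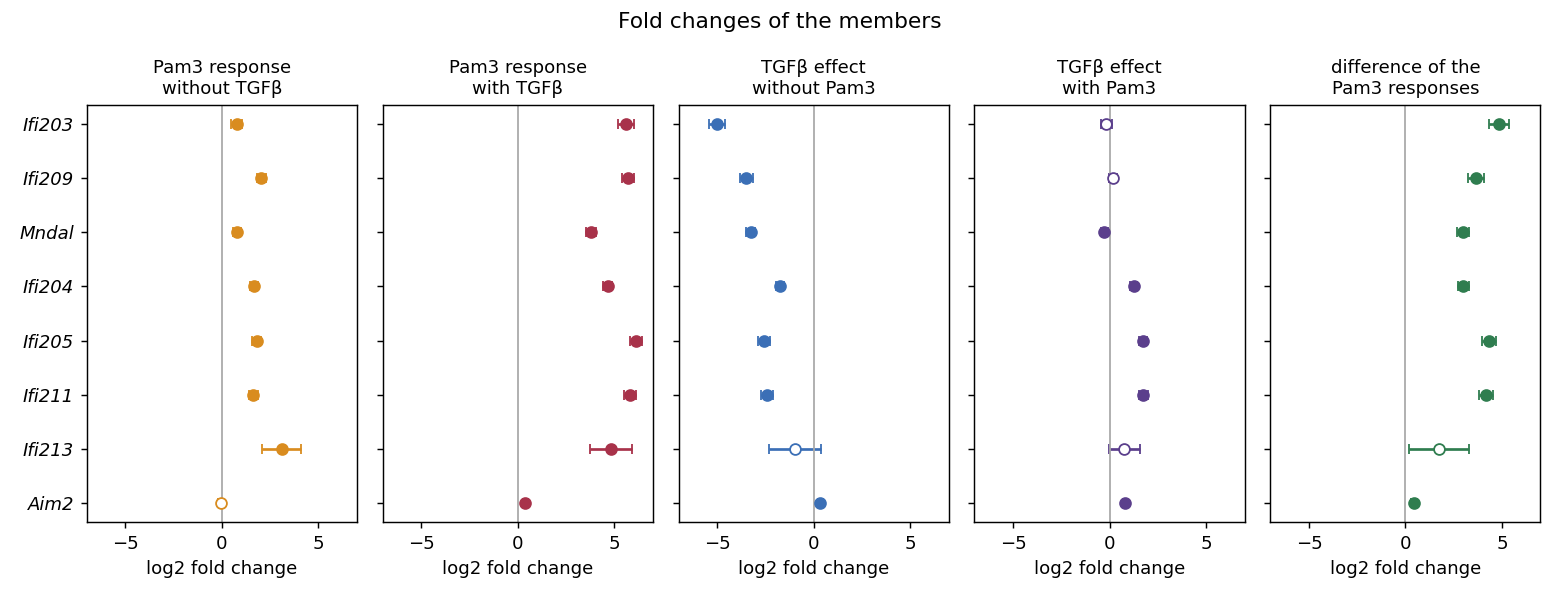
Log2 fold change (x axis) of each member in the 5 comparisons, 1 panel each, from edgeR fitted to 3 libraries per group, with bars for 95% confidence intervals. Filled points passed an adjusted p under 0.05 and open points did not: the open points are Aim2 in the first panel, Ifi213 in the third and the last, and Ifi203, Ifi209 and Ifi213 in the fourth.

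After their values were seen, the members were described in 4 sets by their course over the groups. Ifi204, Ifi205 and Ifi211 stood higher with Pam3+TGFβ than with Pam3 alone. Ifi203, Ifi209 and Mndal stood close to the Pam3 level. Ifi213 had few counts. Aim2 also stood higher with Pam3+TGFβ than with Pam3 alone (1.74-fold), and it is described apart, as TGFβ alone raised it.

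Ifi211, the member with the highest level per length in Pam3+TGFβ, was at 15.3, 20.6 and 19.7 CPM in the untreated libraries and at 3.21, 3.75 and 3.43 CPM with TGFβ. It was at 62.7, 62.8 and 48.2 CPM with Pam3 and at 203.9, 194.9 and 189.8 CPM with Pam3+TGFβ. No group overlapped another, and the order from low to high was TGFβ, untreated, Pam3, Pam3+TGFβ. Pam3 raised it by a log2 fold change of 1.64 without TGFβ (SE 0.11, adjusted p 5.51e-08) and by 5.82 (SE 0.14, adjusted p 2.66e-14) with it. The interaction was 4.18 (95% confidence interval 3.81 to 4.55, adjusted p 1.71e-10), which ranks 51 from the highest of 14749 genes.

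Ifi205, its closest relative by expression, followed the same order at a lower level. Its libraries held 4.73, 6.57 and 5.10 CPM untreated and 0.802, 1.16 and 0.786 CPM with TGFβ. They held 21.0, 19.1 and 17.4 CPM with Pam3 and 67.3, 65.4 and 62.5 CPM with both. Again no group overlapped another. TGFβ lowered it by a factor of 5.93 without Pam3 (log2 fold change -2.57, SE 0.16, adjusted p 5.82e-13) and raised it by a factor of 3.38 with Pam3 (1.76, SE 0.10, adjusted p 1.51e-13). Its Pam3 response with TGFβ, 6.14 on the log2 scale (SE 0.14, adjusted p 8.95e-21), was the steepest among the members, and its interaction was 4.33 (95% confidence interval 3.95 to 4.71, adjusted p 1.87e-14).

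Ifi204, which codes for p204, started higher than Ifi205 and fell less with TGFβ. It was at 26.1, 29.8 and 27.5 CPM untreated and at 8.50, 9.46 and 6.84 CPM with TGFβ. Pam3 libraries held 95.8, 91.7 and 75.8 CPM, and Pam3+TGFβ libraries held 210.5, 211.3 and 207.1 CPM. The 4 groups were again apart in the same order. TGFβ lowered it by 1.75 on the log2 scale without Pam3 (log2 fold change -1.75, SE 0.10, adjusted p 6.76e-11) and raised it by 1.25 with Pam3 (SE 0.09, adjusted p 1.13e-09). The interaction was 3.00 (95% confidence interval 2.72 to 3.29, adjusted p 1.97e-11).

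**Figure D2:**
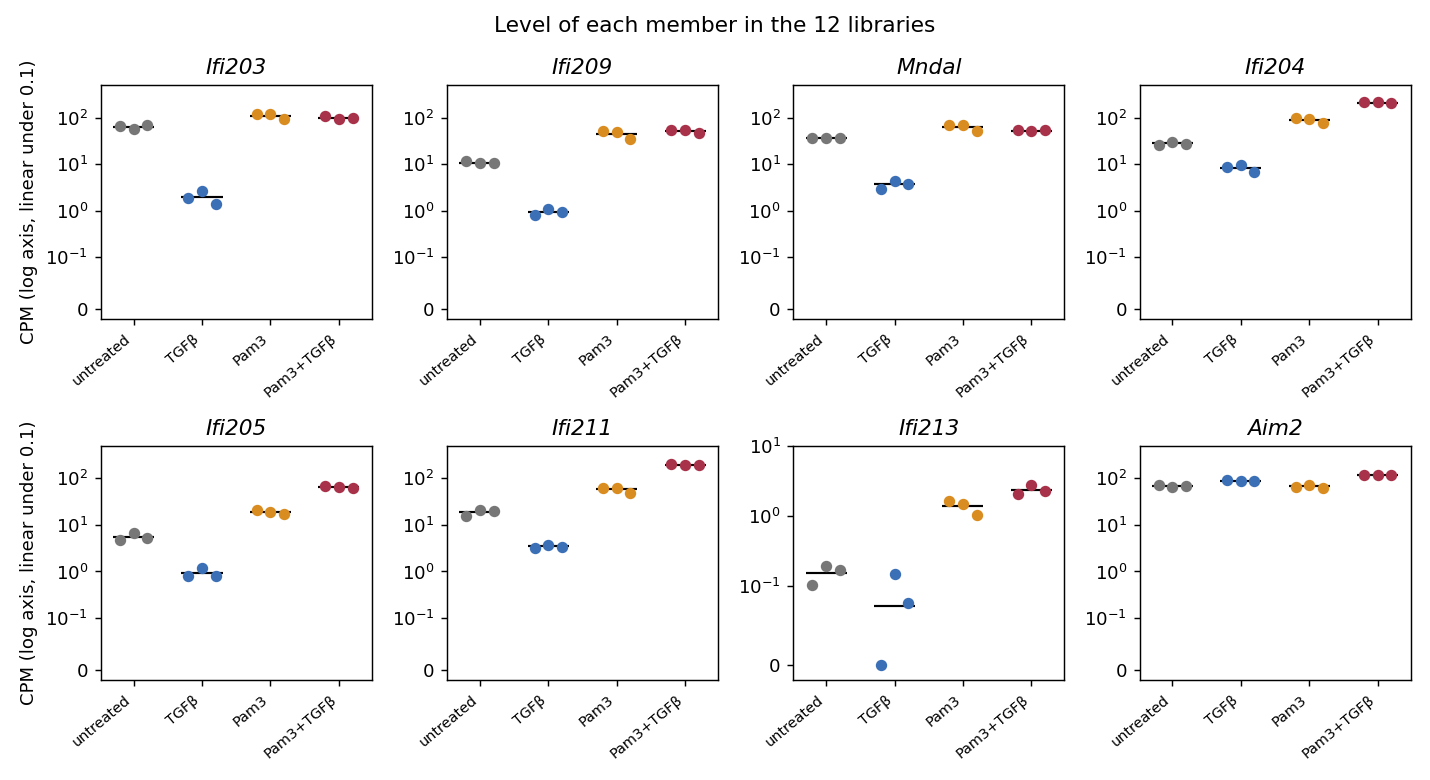
Level of each member in the 12 libraries, in CPM with TMM-scaled library sizes on a log axis that is linear under 0.1. Points are libraries (3 per group) and lines are group means: in Ifi204, Ifi205 and Ifi211 the Pam3+TGFβ libraries lie above all others, in Ifi203, Ifi209 and Mndal they lie near the Pam3 libraries, and Aim2 spans only 61.9 to 117.7 CPM.

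Ifi203 had the deepest fall with TGFβ among the members. Its level was 65.0, 57.9 and 69.4 CPM untreated and 1.85, 2.69 and 1.39 CPM with TGFβ, so that the TGFβ mean was 3.08% of the untreated mean. With Pam3 it was at 117.5, 117.1 and 93.4 CPM, and with both at 106.3, 91.9 and 95.8 CPM. The untreated libraries lay below all Pam3 libraries, and the Pam3 and Pam3+TGFβ libraries overlapped. The fall with TGFβ was -5.01 on the log2 scale (SE 0.18, adjusted p 7.67e-10). Pam3 raised it by 0.77 (SE 0.13, adjusted p 0.00201) without TGFβ and by 5.62 (SE 0.19, adjusted p 4.73e-10) with TGFβ. Its interaction, 4.85 (95% confidence interval 4.34 to 5.36, adjusted p 5.61e-08), was the highest among the members and ranks 29 of all tested genes. In the presence of Pam3 the TGFβ effect was -0.16 (95% confidence interval -0.45 to 0.13, adjusted p 0.37).

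Mndal, named for its likeness to the human myeloid cell nuclear differentiation antigen, fell with TGFβ to 10.3% of its untreated mean. Untreated libraries were at 36.6, 35.5 and 36.0 CPM and TGFβ libraries at 2.96, 4.42 and 3.80 CPM. Pam3 libraries were at 68.3, 67.7 and 52.2 CPM and Pam3+TGFβ libraries at 52.9, 50.9 and 52.7 CPM. The lowest Pam3 library fell within the range of the Pam3+TGFβ libraries, and the other two lay above it. The interaction was 3.00 (95% confidence interval 2.69 to 3.31, adjusted p 5.97e-12). Beside Pam3, TGFβ changed Mndal by -0.27 (SE 0.09, adjusted p 0.0239), and 6 of 19 alternatives did not call it, among them leaving out Pam3 replicate 1 (-0.20, adjusted p 0.144), Pam3 replicate 2 (-0.20, adjusted p 0.144) or Pam3+TGFβ replicate 1, 2 or 3 (adjusted p 0.0546, 0.0853 and 0.0602).

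Ifi209 was at 11.4, 10.7 and 10.4 CPM untreated and at 0.830, 1.11 and 0.943 CPM with TGFβ. Its Pam3 libraries held 50.9, 49.0 and 34.9 CPM and its Pam3+TGFβ libraries 53.3, 52.7 and 46.0 CPM. The TGFβ libraries lay below every untreated library, and the Pam3 libraries overlapped those with both factors. Pam3 raised Ifi209 by 2.06 on the log2 scale without TGFβ (SE 0.12, adjusted p 3.00e-11) and by 5.71 with TGFβ (SE 0.16, adjusted p 1.69e-17). The interaction was 3.65 (95% confidence interval 3.24 to 4.07, adjusted p 1.67e-11). With Pam3 present, TGFβ changed it by 0.17 (95% confidence interval -0.05 to 0.39, adjusted p 0.211), which did not pass the test.

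Ifi213 was near the floor of the data without Pam3. It had 4, 8 and 6 counts untreated and 0, 6 and 3 counts with TGFβ, and then 62, 55 and 33 counts with Pam3 and 70, 102 and 100 counts with both. All 6 libraries with Pam3 lay above all 6 without it. Pam3 raised it by 3.11 on the log2 scale without TGFβ (SE 0.49, adjusted p 3.18e-05) and by 4.85 with TGFβ (SE 0.53, adjusted p 3.81e-08). The response with TGFβ was 5.74 without TGFβ replicate 2 and 4.30 without TGFβ replicate 1. Neither TGFβ effect passed the test (-0.98, adjusted p 0.223, without Pam3, and 0.76, adjusted p 0.117, with it). The interaction was 1.75 (95% confidence interval 0.17 to 3.32, adjusted p 0.137), and it was 2.62 (adjusted p 0.0476) without TGFβ replicate 2, the library that holds 6 of the 9 counts of the TGFβ group.

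Aim2, the inflammasome sensor, rose slightly with TGFβ alone, where 6 of the other 7 members fell. Its libraries were at 73.0, 64.8 and 69.8 CPM untreated and at 90.1, 88.4 and 86.5 CPM with TGFβ. They were at 65.5, 73.3 and 61.9 CPM with Pam3 and at 115.7, 117.7 and 115.9 CPM with both. Untreated and Pam3 libraries overlapped, the TGFβ libraries lay above both, and the Pam3+TGFβ libraries lay above all others. TGFβ raised Aim2 by 0.35 on the log2 scale without Pam3 (SE 0.06, adjusted p 2.21e-05) and by 0.80 with Pam3 (SE 0.06, adjusted p 2.95e-11). Pam3 alone changed it by -0.05 (95% confidence interval -0.17 to 0.08, adjusted p 0.669), and Pam3 on top of TGFβ raised it by 0.40 (SE 0.06, adjusted p 5.44e-06). Its interaction was 0.45 (95% confidence interval 0.27 to 0.62, adjusted p 0.000405), the lowest of the 7 called.

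Some libraries moved with the family. Pam3 replicate 3 was the lowest of its group for 8 of 8 members, and TGFβ replicate 2 was the highest of its group for 7 of 8. Without Pam3 replicate 3 the Pam3 response was 0.87 for Ifi203 and 0.92 for Mndal, and without TGFβ replicate 2 the TGFβ effect without Pam3 was -5.29 for Ifi203. The summed level of 4 neutrophil markers (Ly6g, S100a8, Mpo, Elane) was lower with TGFβ, as were most members, at 12.6 to 15.4 CPM untreated and 2.49 to 3.58 CPM with TGFβ. It ran from 15.4 to 15.5 CPM with Pam3 and from 3.64 to 4.42 CPM with both. Nearly all of it was S100a8, Mpo had no count in any library, and Ly6g and Elane had at most 4 counts in a library. Lists at lower levels also differed: the 2 endothelial markers (Cdh5, Kdr) summed to 1.68 to 1.89 CPM untreated, 0 to 0.277 CPM with TGFβ, 1.27 to 2.48 CPM with Pam3 and 0.589 to 0.727 CPM with both. Of the 3 mast cell markers only Cpa3 had counts, at 0.263 to 1.11 CPM untreated and at most 0.0741 CPM with TGFβ. Of the 2 epithelial markers, Sftpc had no count and Epcam was higher with TGFβ, at a mean of 1.60 CPM against 0.0453 CPM untreated. The part of these cells, and of the macrophage marker levels given above, in the result was not tested. In such bulk libraries, fewer cells of a type and less RNA per cell cannot be told apart.

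Per length of the main transcript, the order of the members changed with treatment. In untreated cells Aim2 led with 33.3 ± 1.98 CPM per kb (SD, n = 3), followed by Mndal at 17.5 ± 0.266, Ifi203 at 13.1 ± 1.19, Ifi204 at 11.5 ± 0.771 and Ifi211 at 10.4 ± 1.58 CPM per kb. Ifi203 did not differ from Ifi204, nor Ifi204 from Ifi211, by more than the sum of their SDs. The same held for Ifi205 (3.10 ± 0.55) and Ifi209 (3.06 ± 0.148), while Ifi213 was far lower at 0.0522 ± 0.0152. With TGFβ, Aim2 stood at 42.5 ± 0.859 CPM per kb and the next member, Ifi204, at 3.41 ± 0.547. Ifi211 (1.94 ± 0.153) and Mndal (1.81 ± 0.355) did not differ beyond their spread, nor did Ifi205 (0.52 ± 0.12) and Ifi203 (0.404 ± 0.135), or Ifi203 and Ifi209 (0.271 ± 0.0399). With Pam3, Ifi204 (36.3 ± 4.35), Ifi211 (32.4 ± 4.72), Aim2 (32.2 ± 2.80) and Mndal (30.4 ± 4.41) were level within their spread, ahead of Ifi203 (22.3 ± 2.82), Ifi209 (12.7 ± 2.46), Ifi205 (10.9 ± 1.02) and Ifi213 (0.459 ± 0.0975). Ifi209 and Ifi205 did not differ beyond their spread there. With both, the order was Ifi211 (109.9 ± 3.99), Ifi204 (86.6 ± 0.923), Aim2 (56.0 ± 0.521), Ifi205 (36.9 ± 1.37), Mndal (25.3 ± 0.52), Ifi203 (20.0 ± 1.53), Ifi209 (14.3 ± 1.15) and Ifi213 (0.783 ± 0.119), and each differed from the next by more than the sum of their SDs. By this measure Aim2 went from the first place to the third between TGFβ and Pam3+TGFβ, behind Ifi211 and Ifi204. The measure divides by full length, though 58.3% of the 100-base stretches of Ifi211, 43.4% for Ifi205 and 0 for Aim2 occur elsewhere. How multiply aligned reads were counted is not given. Bowtie2 does not split reads across introns, and exons number from 5 (Aim2) to 9 (Ifi204 and Mndal). The ranks between members are therefore uncertain, and the SDs do not cover this.

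Summed over the 8 members, the family held 232.1 ± 6.01 CPM in untreated cells (SD, n = 3), 107.7 ± 3.72 with TGFβ, 450.2 ± 56.5 with Pam3 and 790.5 ± 20.1 with both. Without Aim2 the sum was 162.9 ± 4.75, 19.4 ± 2.94, 383.3 ± 52.3 and 674.1 ± 20.4 CPM in the same order. Aim2 took 28.7% to 31.4% of the family's counts in untreated libraries and 79.5% to 83.4% with TGFβ. With Pam3 its share was 13.6% to 16.1%, and with both it was 14.3% to 15.01%. Ifi204, Ifi205 and Ifi211 together rose from 164.9 ± 20.5 CPM with Pam3 to 470.9 ± 11.2 CPM with both. Ifi203, Ifi209 and Mndal together stood at 217.0 ± 31.6 and 200.8 ± 10.1 CPM. These sets were formed by this same difference after the values were seen, so their sums only restate the sorting. Mndal shares identical stretches with Ifi204, Ifi205 and Ifi211, so reads may also be shared between the sets.

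**Figure D3:**
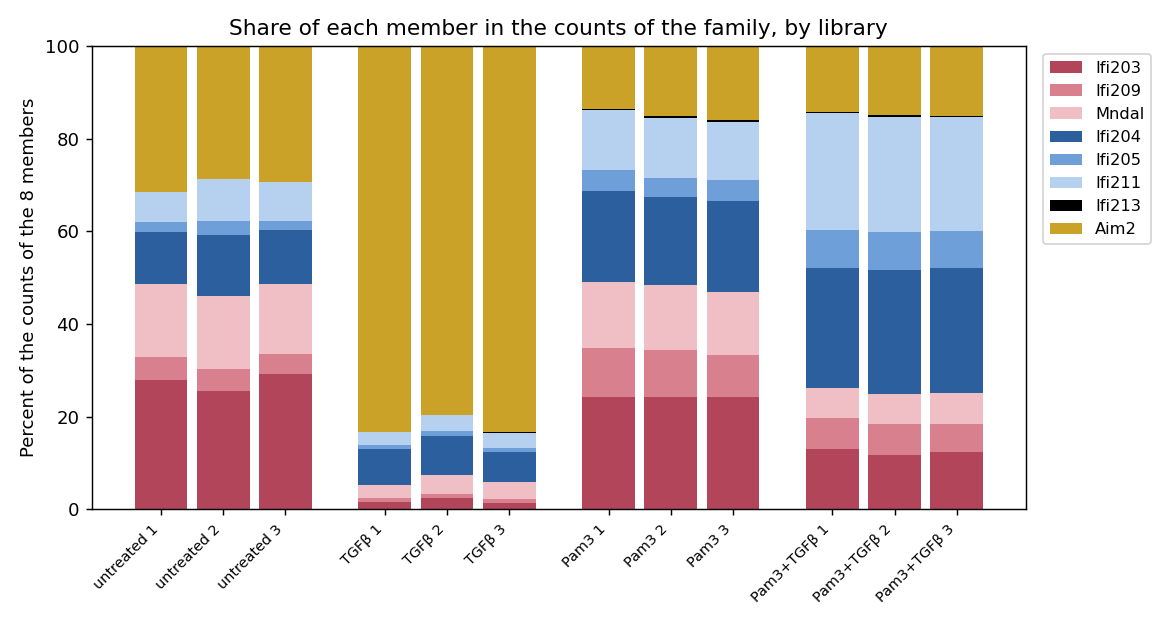
Share of each member in the summed counts of the 8 members (y axis, percent, not corrected for gene length) in each of the 12 libraries. Aim2 makes up 79.5% to 83.4% of the bars with TGFβ, and the blue part (Ifi204, Ifi205, Ifi211) is widest with Pam3+TGFβ.

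Ratios of counts within a library do not depend on its scaling. The count of Ifi204 over that of Ifi203 was 0.401, 0.514 and 0.395 untreated, 4.58, 3.51 and 4.92 with TGFβ, 0.815, 0.783 and 0.812 with Pam3, and 1.98, 2.30 and 2.16 with both. These 4 ranges did not overlap. The count of Ifi205 over that of Ifi211 stayed between 0.229 and 0.362 in all 12 libraries. These are the members whose exons share the most identical stretches, and the part of shared reads in this ratio was not tested. Ifi203 over Mndal was 1.63 to 1.93 untreated, 1.72 to 1.79 with Pam3 and 1.80 to 2.01 with both, but 0.366 to 0.626 with TGFβ.

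Likeness of course was measured as the root mean square (RMS) difference of log2 CPM, each gene centred on its mean over the 12 libraries. Over the 66 pairs among 12 tested PYHIN genes, the 6 pairs with coding identity over 90% had an RMS difference of 0.17 to 0.76 (median 0.54), and the 60 pairs at or below 90% had 0.54 to 2.46 (median 1.10). The lowest value, 0.17, belonged to Ifi205 and Ifi211. Ifi204 and Ifi205, which share no identical stretch of 100 bases but 57 of 50 bases, differed by 0.52. The 6 pairs of members with shared stretches of 100 bases differed by 0.17 to 1.13 (median 0.84). Members without shared stretches of 100 bases, Aim2 aside, differed by 0.52 to 1.57 over 15 pairs (median 0.79). The split was not made at 50 bases, and the part of shared reads in these values was not tested. The 11 pairs with Aim2 differed by 0.88 to 2.46. The pairs share genes and libraries, so these values are a description.

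**Figure D4:**
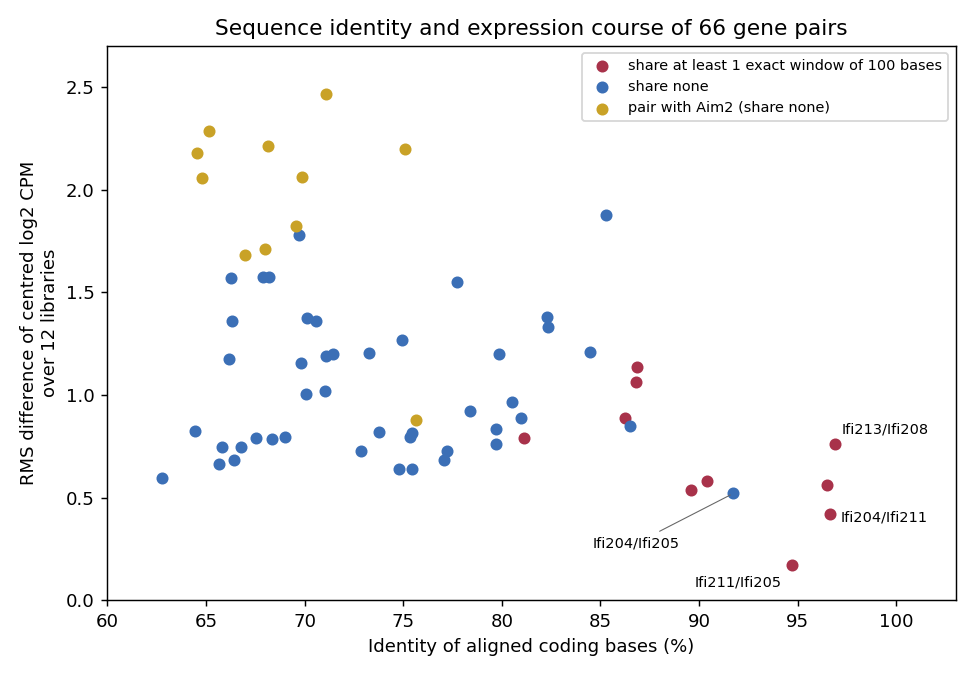
Identity of aligned coding bases (x axis, percent) against the RMS difference of centred log2 CPM over 12 libraries (y axis) for 66 pairs of PYHIN genes, 1 point per pair. Red pairs share at least 1 identical exon stretch of 100 bases: the pairs over 90% identity lie at or below 0.76, and the pairs with Aim2 lie at or above 0.88.

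Along the chromosome, genes of the same course were not always next to each other. Mndal, Ifi211 and Ifi203 follow one another, and in the presence of Pam3 the TGFβ effect was -0.27, 1.76 and -0.16 for them. A further 4 PYHIN genes of the block were tested. Ifi207, between Ifi208 and Ifi204, was at 89.5, 90.0 and 95.1 CPM untreated, 62.7, 74.9 and 72.4 CPM with TGFβ, 184.3, 174.7 and 155.4 CPM with Pam3, and 452.0, 439.7 and 451.0 CPM with both. It fell less with TGFβ than the members that fell (log2 fold change -0.39, SE 0.06, adjusted p 1.42e-05) and had an interaction of 1.77 (SE 0.09, adjusted p 1.25e-12). Ifi206, Ifi208 and Ifi214 were at or under 1.37 CPM in all 6 libraries without Pam3, and their interactions were 2.51, 2.59 and 3.64 (adjusted p 0.001, 0.000672 and 0.00219). Ifi214 had 0, 4 and 0 counts with TGFβ. Without TGFβ replicate 2 that group was at 0, and the fitted interaction of 7.15 then depends on the prior count and is no bound. Ifi202b had 3 counts in Pam3 replicate 2 and none in the other 11 libraries. Of 10 further PYHIN symbols looked for, these 5 had a row.

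**Figure D5:**
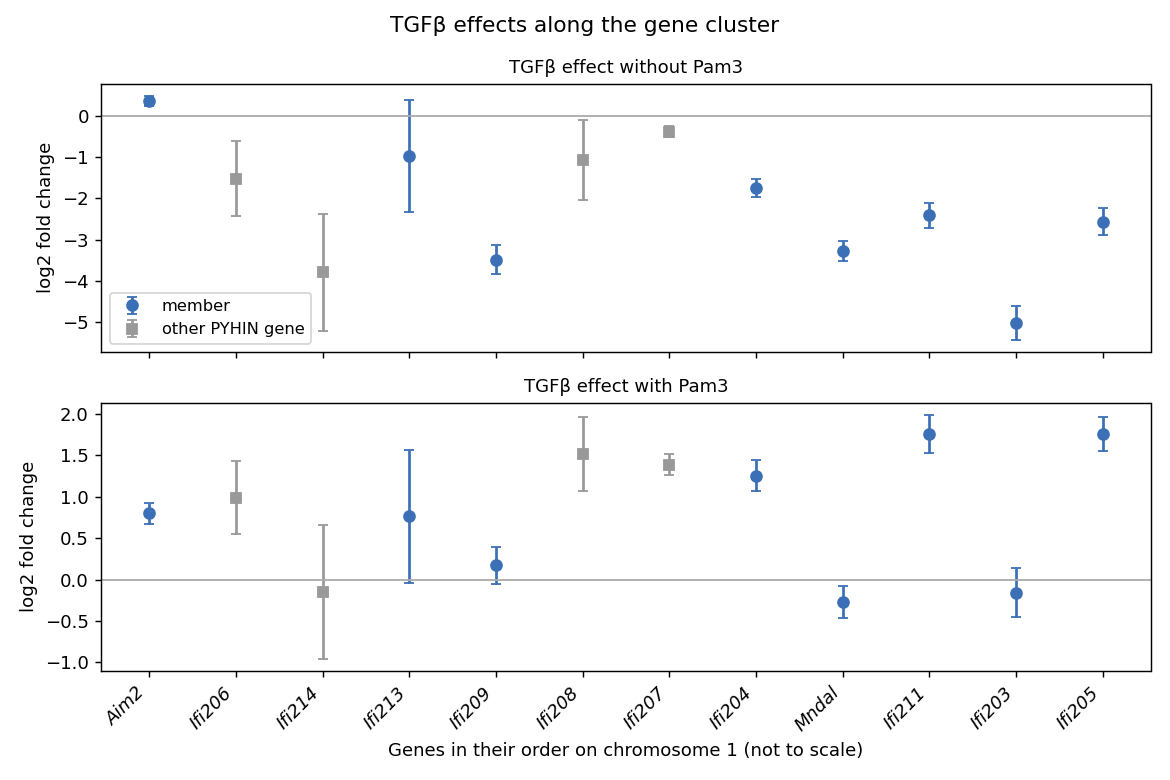
TGFβ effect (y axis, log2 fold change with 95% confidence intervals) without Pam3 (upper panel) and with Pam3 (lower panel) for 12 PYHIN genes in their order on chromosome 1, not to scale. Blue points are the 8 members and grey squares other PYHIN genes: without Pam3 all points except Aim2 lie below 0, and with Pam3 Ifi204 and Ifi211 lie above 1 while Mndal, between them, lies at -0.27.

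Of 12 listed genes of inflammasomes and the cell death they start, 11 were tested. Brackets give the shares of all 14749 genes that went up and down by the same test. Pam3 raised 4 and lowered none without TGFβ (9.62% up, 8.66% down). With TGFβ present, it raised 9 and lowered 1 (20.4% up, 18.1% down). TGFβ without Pam3 raised 1 and lowered 8 (22.9% up, 28.1% down). Beside Pam3, TGFβ raised 4 and lowered 4 (21.5% up, 23.8% down). The interaction was higher for 7 and lower for none (10.3% up, 5.67% down). Pycard, the adaptor, was at 164.2, 180.5 and 147.2 CPM untreated, 63.9, 64.4 and 61.3 CPM with TGFβ, 160.4, 163.6 and 153.0 CPM with Pam3, and 83.2, 87.3 and 79.8 CPM with both. It was lower in every TGFβ library than in any library without TGFβ, by -1.38 on the log2 scale without Pam3 (SE 0.06) and -0.93 with it (SE 0.06), whereas Aim2 was higher. Its interaction was 0.45 (SE 0.08, adjusted p 0.000411). Casp1, the protease, had group means of 64.7, 52.3, 66.2 and 63.0 CPM (untreated, TGFβ, Pam3, both), and its interaction was 0.24 (adjusted p 0.0937). Gsdmd, which codes for the pore-forming protein, had an interaction of 0.40 (adjusted p 0.00258).

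The inflammasome's cargo split. Il1b rose from 61.6 ± 14.9 CPM untreated to 356.5 ± 42.1 with Pam3, and from 65.7 ± 4.95 with TGFβ to 1563 ± 145.6 with both (SD, n = 3), with an interaction of 2.04 (SE 0.24, adjusted p 0.000456). Il18 was at 76.8 ± 2.76 untreated, 44.4 ± 1.48 with TGFβ, 70.2 ± 2.91 with Pam3 and 38.3 ± 0.797 CPM with both, and its interaction of -0.09 did not pass the test (adjusted p 0.573). Zbp1, another sensor of nucleic acids, was at 19.8 ± 1.26, 8.34 ± 0.767, 48.8 ± 3.05 and 93.4 ± 1.49 CPM in the same order of groups. Its course had the same order of groups as that of Ifi204, and its interaction was 2.19 (SE 0.10, adjusted p 6.30e-14).

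A list of other genes of cytosolic DNA sensing, chiefly the cGAS and STING pathway, held 15 symbols, of which 13 were tested. It includes Xrcc5, Xrcc6, Prkdc and Mre11a, which are best known for DNA repair. Pam3 raised 5 and lowered 2 without TGFβ, against 9.62% up and 8.66% down among all genes. With TGFβ it raised 5 and lowered 6, these 4 repair genes among the 6 (all genes 20.4% and 18.1%). TGFβ without Pam3 raised 5 and lowered 4 (all genes 22.9% and 28.1%). Beside Pam3, TGFβ raised 5 and lowered none (all genes 21.5% and 23.8%). The interaction was higher for 6 and lower for 1 (all genes 10.3% and 5.67%). Cgas, the sensor, went like Aim2 up with TGFβ alone, from 27.2 ± 1.49 to 33.5 ± 1.36 CPM (SD, n = 3, log2 fold change 0.30, SE 0.06), and stood at 38.6 ± 1.49 CPM with Pam3 and 76.1 ± 1.86 CPM with both. Its interaction was 0.68 (SE 0.09, adjusted p 2.18e-06). Sting1, the adaptor, was highest in untreated cells (98.7 ± 3.36 CPM) and at 73.5 ± 1.53 CPM with both, with an interaction of 0.24 (adjusted p 0.0365) that upper-quartile scaling (adjusted p 0.102) and leaving out 9 of the 12 libraries in turn did not call. The kinases Tbk1 and Ikbke had interactions of 0.53 (SE 0.08) and 0.79 (SE 0.07), with adjusted p of 1.10e-05 and 1.54e-09. Of the transcription factors, Irf3 passed the test in none of the 5 comparisons (interaction -0.05, adjusted p 0.789). Irf7, itself an interferon-inducible gene, rose from 50.4 ± 5.82 CPM with Pam3 to 220.03 ± 1.51 CPM with both (interaction 2.45, SE 0.28, adjusted p 0.000256).

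Interferon signalling, through which many PYHIN genes are known to be raised, was represented by 12 tested genes of 13. Pam3 raised 7 of them and lowered 1 without TGFβ, against 9.62% up and 8.66% down among all genes. With TGFβ it raised 10 and lowered 1 (all genes 20.4% and 18.1%). TGFβ without Pam3 raised 3 and lowered 7 (all genes 22.9% and 28.1%). Beside Pam3, TGFβ raised 7 and lowered 2 (all genes 21.5% and 23.8%). The interaction was higher for 8 and lower for 1 (all genes 10.3% and 5.67%). Ifnb1, the gene of interferon β, was counted in Pam3+TGFβ libraries only, 11, 18 and 10 times, and was not tested. The receptor gene Ifnar1 was highest with Pam3 (139.05 ± 3.21 CPM, SD, n = 3), and its interaction of 0.19 did not pass the test (adjusted p 0.102). Stat2 and Irf9 code for subunits of the factor that binds the response element searched for above. TGFβ without Pam3 raised Stat2 (log2 fold change 0.24, SE 0.05, adjusted p 0.000165), and Irf9 was not called (0.14, adjusted p 0.0731). These are RNA levels of 2 subunits, and the part of the factor in the course of the members was not tested. Ifnar1 fell by 0.44 on the log2 scale in that comparison (SE 0.06, adjusted p 2.24e-07). Stat2 was at 80.3 ± 1.43, 94.9 ± 6.18, 162.1 ± 7.08 and 425.4 ± 3.79 CPM (untreated, TGFβ, Pam3, both). The interactions of Stat2 and Irf9 were 1.15 (SE 0.07) and 0.66 (SE 0.09), with adjusted p of 3.67e-12 and 4.37e-06. Usp18, an inhibitor of the interferon receptor, went from 0.824 ± 0.207 CPM with TGFβ to 65.2 ± 2.50 CPM with both, and its interaction was 2.43 (SE 0.32, adjusted p 6.36e-05).

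Outside the PYHIN genes, the 3 tested genes with the lowest RMS difference to each member over the 12 libraries were named. For Ifi204 these were Tgtp2 (0.23), Ifi47 (0.27) and Slfn4 (0.28). Ifi205 and Ifi211 shared Ereg (0.35 and 0.39), Tgtp2 (0.50 and 0.40) and Slfn5 (0.46 and 0.51). Ifi203 was nearest to Ccl3 (0.44), Ch25h (0.45) and Adora2a (0.49), Ifi209 to Slfn1 (0.34), Phf11a (0.36) and Phf11b (0.40), and Mndal to Tnfaip8l3 (0.29), Gm30474 (0.35) and Txlnb (0.35). The nearest genes to Ifi213 were Oas2 (0.39), Slfn4 (0.50) and Oas3 (0.51). Aim2 had the closest matches, Plekhf2 (0.08), Tmem229b (0.08) and Epb41l2 (0.08), as its own course was the flattest (SD of 0.33 on the log2 scale against 1.64 to 2.40 for the others). Only Ifi205 and Ifi211 were nearer to a PYHIN gene, each other, than to any of these. The median RMS difference over all genes was 2.42 for Ifi203 and 0.44 for Aim2.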

How the data were processed

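The authors deposited whole counts of reads per gene symbol for 12 libraries and the same counts divided by 1 constant per library, a normalized signal. The submitters' processing notes name GRCm39, Bowtie2 2.4.1, featureCounts of Subread 2.0.0 and DESeq2 1.36.0; strand, annotation and multiple alignments in counting are not given in the sources used here. Bowtie2 does not split reads across introns. The kit was a stranded one for mRNA, per the labels' protocols.

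Rows whose symbol was a member were described, and all genes were fitted together. The raw counts were filtered with filterByExpr (minimum count 10), scaled with TMM and tested with the quasi-likelihood test of edgeR 4.0.16 (robust) in R 4.3.3, with 4 group means and no covariate, in 5 contrasts. Adjusted p-values are Benjamini-Hochberg values over 14749 genes. SE is the size of the log2 fold change divided by the square root of F. CPM uses TMM-scaled library sizes, and log2 CPM a prior count of 2. Library totals differed by a factor of at most 1.30. Over all genes together, replicates differed by more than sampling noise (lowest chi-square per degree of freedom 9.99), which says little of genes with few counts, such as Ifi213. The procedure was tested on simulated counts.

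Members and gene lists were chosen with earlier results of these data known. The genes named are the 8 members, other PYHIN symbols, the 3 nearest protein-coding genes on each side, and the 3 genes of the most similar course per member. Values are also given for up to 6 genes of each of 3 pathway lists (set genes plus those with the largest interaction). The repair genes of the DNA sensing list are given by name only. Exons, coding identity and shared stretches come from GENCODE M39 on GRCm39 and promoters from RefSeq on GRCm38.p6. Protein identity was not analysed here, and some genes of the lists are not reported here. Alternatives were DESeq2-type size factors, upper-quartile scaling, DESeq2 1.42.0, limma-trend (limma 3.58.1) on log2 of the normalized signal plus 1, a minimum of 10 counts in every library, no filter, leaving out each library, a replicate block, and stretches of 50 bases.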

Additional observations from a re-analysis of the deposited data

Results flagged for a closer look

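The Pam3 response differed with and without TGFβ by the test of the difference itself (the interaction of edgeR's quasi-likelihood test, 3 libraries per group) for the genes named here, and for each the response was higher with TGFβ. Among the members these log2 differences were 4.85 (Ifi203), 4.33 (Ifi205), 4.18 (Ifi211), 3.65 (Ifi209), 3.00 (Ifi204), 3.00 (Mndal) and 0.45 (Aim2). Among other PYHIN genes they were 3.64 (Ifi214, whose 4 counts with TGFβ were all in replicate 2), 2.59 (Ifi208), 2.51 (Ifi206) and 1.77 (Ifi207). Among inflammasome genes they were 2.19 (Zbp1), 2.04 (Il1b), 0.45 (Pycard) and 0.40 (Gsdmd). Among genes of cytosolic DNA sensing they were 2.45 (Irf7), 0.79 (Ikbke), 0.68 (Cgas), 0.53 (Tbk1) and 0.24 (Sting1, a call lost with upper-quartile scaling and without any 1 of 9 libraries). Among genes of interferon signalling they were 2.43 (Usp18), 1.15 (Stat2) and 0.66 (Irf9). Of all tested genes, 10.3% had a called higher interaction.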

How the results depend on the processing

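Of 755 values of a member in a comparison under an alternative, 747 kept their direction and their side of the threshold. The exceptions were the TGFβ effect on Mndal with Pam3, which lost its call in 6 of 19 alternatives, the interaction of Ifi213, which gained one without TGFβ replicate 2, and Aim2 in the Pam3 response without TGFβ. That response of Aim2, which was not called, ran from -0.12 (without Pam3 replicate 2) to 0.0042 (without Pam3 replicate 3). The number of members called lower by TGFβ in the presence of Pam3 was 0 with limma-trend and 0 to 1 over the fits that left out 1 library. The uncalled TGFβ effect on Ifi214 with Pam3 ran from -0.29 to 0.016 (without Pam3 replicate 3 and 2). The cause was not tested.

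Over the alternatives, the interaction ran from 4.63 to 5.13 for Ifi203, 4.17 to 4.52 for Ifi205, 4.07 to 4.28 for Ifi211, 3.51 to 3.76 for Ifi209, 2.86 to 3.10 for Ifi204, 2.84 to 3.12 for Mndal and 0.39 to 0.52 for Aim2, and each stayed called. Upper-quartile scaling moved the split of all called genes to 2477 higher and 3489 lower in the Pam3 response with TGFβ (3008 and 2670 with TMM) and to 1255 and 1097 in the interaction (1516 and 836). It changed no call of a member.

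Whether replicate numbers pair the libraries is unknown, and correlations with 3 libraries per group cannot decide it. Over the 18 pairs of libraries with the same number, the correlation of deviations from the group means ran from -0.17 to 0.30. It was over 0.1 in 7, and a library correlated best with its own number in 16 of 36 comparisons with another group. With the number as a replicate block, 2393 genes had a called interaction (2352 without it), that of Ifi203 was 4.855, and no call of a member changed. At 50 bases, 74.1% of the stretches of Ifi211 and 37.2% of those of Ifi213 were found elsewhere. Ifi213 had at most 8 counts in a library without Pam3.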
